A study of Mus musculus with 6 samples.

Results

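The immunity-related GTPases, or IRG proteins, are a family of interferon-induced GTPases, and 10 of their genes were followed here in tumours of CT26, a mouse colon carcinoma line, out of 25251 genes in the deposited table. The members were chosen by gene name (Irgm1, Irgm2, Igtp, Iigp1, Tgtp1, Tgtp2, Gm12250, Gm4841, F830016B08Rik and Gm4951), with their irinotecan against control values in that table already known. All values of that contrast are therefore given as a description, without a test of the members. On GRCm38, 6 of the genes lie on chromosome 11 and 4 on chromosome 18. RNA sequencing compared 3 irinotecan libraries with 3 control libraries, though the series' design text speaks of duplicates. The irinotecan mice carried subcutaneous CT26 tumours and received CPT-11 (irinotecan, a prodrug of a topoisomerase I poison) intraperitoneally at 25 mg/kg at intervals of 4 days, and the control mice carried the same tumours and received solvent. Both groups were BALB/c mice of genotype WT, randomized at a tumour volume of 100 mm3. The labels give no age, sex, number of doses or time of collection. Separate mice are not stated for the libraries of a group, and a p-value here measures only their spread, which may be technical.

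IRG proteins defend mouse cells against bacteria and protozoa that live in vacuoles, such as Toxoplasma and Chlamydia. They fall into 2 classes. The effector GTPases, among them the products of Iigp1 (Irga6), Tgtp1 and Tgtp2 (Irgb6), Gm12250 (Irgb10) and Ifi47 (Irgd), load onto the vacuole membrane and break it. The regulators Irgm1, Irgm2 and Igtp (Irgm3), which carry a methionine in place of the P-loop lysine, sit on the cell's own membranes and hold the effectors in their inactive GDP-bound state. Interferon-gamma induces the genes through promoter elements of the GAS kind and of the ISRE kind, which IRF factors bind.

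Promoter sequence is shown first, as a description, and its part in the genes' values was not tested. RefSeq promoter windows on GRCm38.p6, from 250 bases before to 50 after the start site, were found for 6 of the 10 members, all on chromosome 11, while Iigp1, Gm4841, F830016B08Rik and Gm4951 had no entry. The GAS core searched was TTCNNNGAA, which reads the same on both strands, and the IRF core was GAAANNGAAA on either strand. Overlapping matches were counted. The IRF core was in 6 of the 6 member windows, against 3.44% of all 32851 windows, and the GAS core was in 5 of 6, against 8.30%. Both cores together were in 0.454% of all windows. In the stretches that follow, read 5′ to 3′ on the gene's strand, capitals mark the cores.
Irgm2, chr11:58214882-58214942, plus strand: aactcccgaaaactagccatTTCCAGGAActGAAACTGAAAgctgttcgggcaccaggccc
Igtp, chr11:58199491-58199551, plus strand: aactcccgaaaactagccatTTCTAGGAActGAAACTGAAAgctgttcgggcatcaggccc
Tgtp1, chr11:48992294-48992354, minus strand: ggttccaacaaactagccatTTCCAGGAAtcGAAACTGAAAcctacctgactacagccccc
Tgtp2, chr11:49064253-49064313, minus strand: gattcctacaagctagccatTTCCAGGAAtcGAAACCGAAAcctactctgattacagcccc
Gm12250, chr11:58183732-58183826, plus strand: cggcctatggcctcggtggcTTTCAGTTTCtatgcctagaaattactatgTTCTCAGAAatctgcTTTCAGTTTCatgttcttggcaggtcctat
Irgm1, chr11:48871415-48871470, minus strand: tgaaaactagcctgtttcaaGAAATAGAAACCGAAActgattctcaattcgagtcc

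In Irgm2, Igtp, Tgtp1 and Tgtp2 the GAS core was followed after 2 bases by the IRF core. This arrangement was noticed in the sequences and then searched for in all windows as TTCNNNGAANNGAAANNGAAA on either strand. It was found in 5 of 32851 windows (0.0152%), namely those of the 4 members and of Gm12185 (Irgb2b1 in RefSeq), an IRG gene outside the list. The Igtp and Irgm2 stretches were identical at 59 of 61 bases and the Tgtp1 and Tgtp2 stretches at 47 of 61, while between these 2 pairs 39 to 43 of 61 bases were identical. The genes are related copies, so these matches are not independent of one another. In Gm12250 the GAS core lay between 2 IRF cores on the opposite strand. Irgm1 had 2 overlapping IRF cores, and the letters of the GAS core were not in its window. A match describes the letters and is not a binding site. For Irgm2, Tgtp2, Gm12250 and Gm12185 the bases just after the RefSeq start site were not found as 1 stretch in the gene's GENCODE M21 transcripts. This check does not give the distance between the start sites, which can be small.

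**Figure D1:**
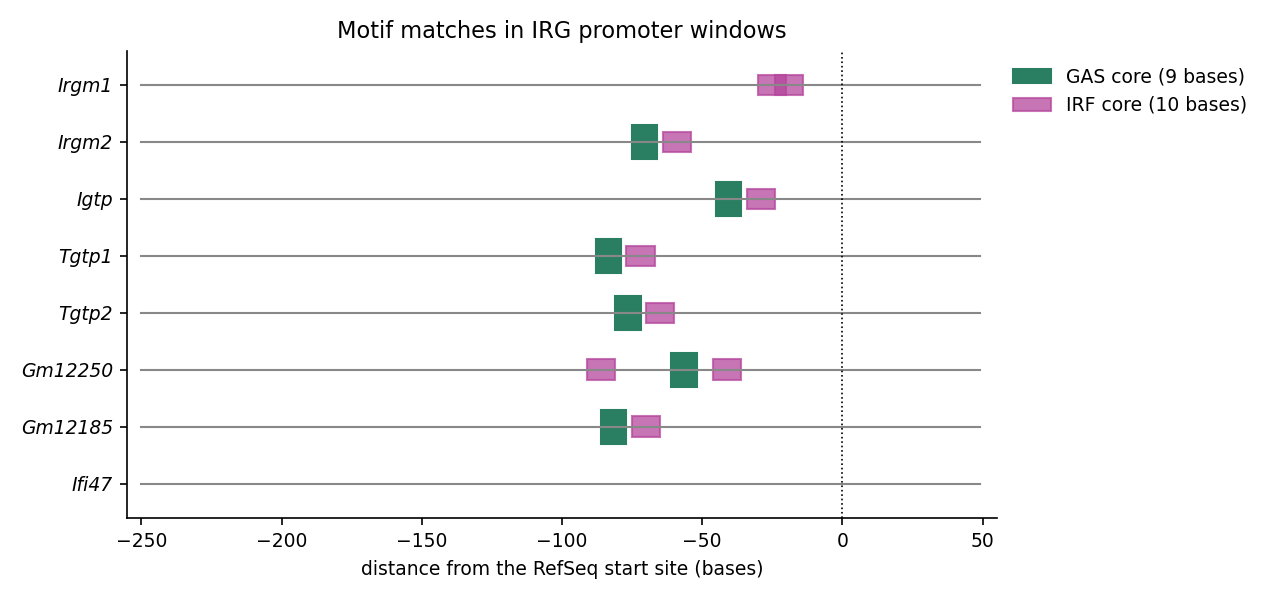
Positions of the GAS core (green) and the IRF core (purple) along the RefSeq promoter windows of 6 IRG members and of Gm12185 and Ifi47, 2 IRG genes outside the list, in bases from the start site (dotted line). In Irgm2, Igtp, Tgtp1, Tgtp2 and Gm12185 the green box is followed directly by a purple one, and Ifi47 has neither.

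The libraries held 13940650 to 15656894 reads assigned to genes, which were recovered from the deposited normalized counts (reads per gene divided by 1 factor per library). Every member had reads in every library. Irinotecan replicate 1 stood apart: it had reads for 19040 genes, against 20571 to 21426 in the others, and its genes above 52% GC lay at a median of -0.29 on the log2 scale from the control mean, while genes from 42 to 47% GC lay at 0.19 and genes under 42% GC at 0.27. The median GC of the members' transcripts ranged from 39.3% (Iigp1) to 49.8% (Igtp), and the 4 members on chromosome 18 were under 42%. The part of GC in their values in that library was not tested. After a joint trend on GC and gene length was removed from every library, the members' median log2 fold change between the groups was 0.97. Of 8 colon epithelial markers, Epcam had 0 reads in 5 of the 6 libraries and Cdx2, Vil1 and Krt19 had at most 4.84 normalized counts in any library. Cdh1 had 11.1 to 38.0, Krt8 37.0 to 149, Krt18 46.2 to 142 and Krt20 1608 to 2098. In bulk tumour RNA, fewer cells that express a gene and less RNA per cell cannot be told apart.

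The 3 regulators were all higher in irinotecan tumours. Irgm1, which also acts in autophagy, had 1861, 1992 and 1952 normalized counts in irinotecan replicates 1, 2 and 3, against 1118, 1034 and 647 in control replicates 1, 2 and 3. The groups did not overlap, and the means were 1935 ± 67 and 933 ± 251 (SD, n = 3 each). The log2 fold change was 1.09 (SE 0.207). Fold changes are of log2(normalized count + 1), irinotecan over control, from a limma fit over all genes. The irinotecan libraries lay close together, and the lowest value was that of control replicate 3.

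Irgm2 had 1055, 1155 and 1360.2 normalized counts in irinotecan tumours, against 694, 694 and 417 in controls, a log2 fold change of 1.01 (SE 0.220). Igtp had 875, 1177 and 1371 normalized counts in irinotecan tumours, against 751, 782 and 423 in controls, a log2 fold change of 0.83 (SE 0.266). Neither gene's groups overlapped, but for Igtp the gap between irinotecan replicate 1 and the higher controls was small. Irgm2 and Igtp are neighbours on chromosome 11 (58199618 to 58222782 and 58199556 to 58207591) and share 162 exon bases on the plus strand in GENCODE M21, which is 8.01% of the Igtp exons and 4.39% of the Irgm2 exons. The sources used here do not say how reads in those bases were assigned. Without control replicate 3 the log2 fold change of Igtp was 0.55.

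Among the effectors, Iigp1 was the member with the most reads. It had 2863, 2769 and 3325 normalized counts in irinotecan tumours, against 1799.6, 1643 and 970.2 in controls, with means of 2986 ± 298 and 1471 ± 441 (SD, n = 3 each). The groups did not overlap, and the log2 fold change was 1.07 (SE 0.230). Iigp1 lies on chromosome 18 from 60376029 to 60392627.

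Gm12250, the Irgb10 gene, whose product helps to open bacterial vacuoles and the bacteria inside them, had 285, 204 and 321 normalized counts in irinotecan tumours, against 167, 222 and 93.9 in controls (log2 fold change 0.80, SE 0.327). Irinotecan replicate 2 lay below control replicate 2, so the groups overlapped. The deposited row is a processed pseudogene of 1274 bases from 58187739 to 58189012 on chromosome 11. RefSeq has a protein-coding gene of this name that runs past the row at both ends, so the row counts only part of it. Without control replicate 3 the log2 fold change was 0.46.

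**Figure D2:**
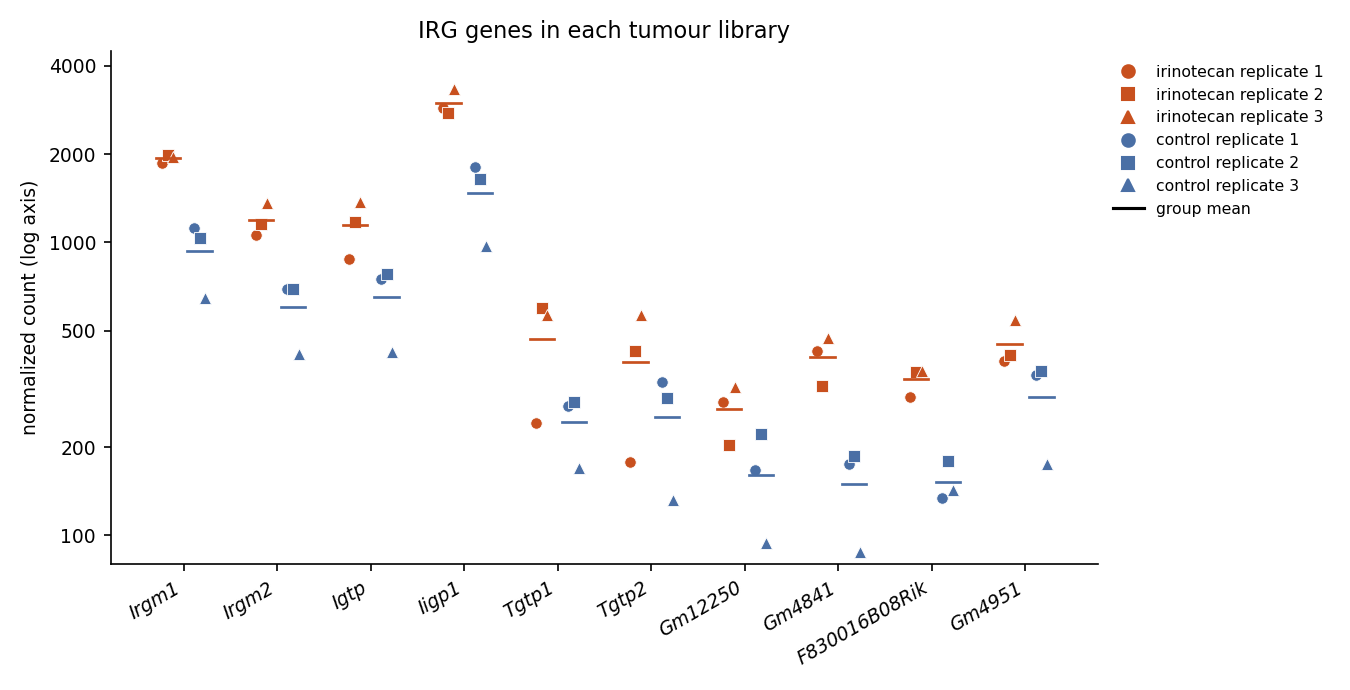
Normalized counts (log axis) of the 10 IRG genes in the 3 irinotecan libraries (orange) and the 3 control libraries (blue); symbols mark replicates 1, 2 and 3 and lines the group means. Control replicate 3 is the lowest library in 9 of the 10 genes, and for Tgtp1 and Tgtp2 irinotecan replicate 1 lies among the controls.

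Tgtp1 and Tgtp2, first described as T cell specific GTPases, differed from the other members in irinotecan replicate 1. Tgtp1 had 242, 598 and 565 normalized counts in irinotecan replicates 1, 2 and 3, against 276, 284 and 169 in controls (log2 fold change 0.87, SE 0.364). Tgtp2 had 178, 427 and 564 in irinotecan tumours, against 335, 294 and 132 in controls (log2 fold change 0.57, SE 0.475). In both genes irinotecan replicates 2 and 3 lay above every control while irinotecan replicate 1 lay among them, so the groups overlapped. Without that library the log2 fold changes were 1.29 for Tgtp1 and 1.06 for Tgtp2, whereas that of Tgtp2 was 0.23 without irinotecan replicate 3 and 0.16 without control replicate 3.

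The Tgtp genes are near-identical copies on chromosome 11 (48985327 to 48994172 and 49057194 to 49064206). Of all stretches of 100 bases in Tgtp2 transcripts 76.8% also occurred in Tgtp1, and 70.3% of those of Tgtp1 occurred in Tgtp2, so their separate values are uncertain. Summed, they held 419.96, 1025 and 1128 normalized counts in irinotecan tumours, against 610.5, 578 and 301 in controls, with a log2 fold change of 0.73 (SE 0.407). How reads in the shared stretches were counted is not stated in the sources used here, so the sum may also be too low. The sum shows the same low irinotecan replicate 1. In that library 9 T cell markers had a summed level of 316 normalized counts, against 637 and 485 in irinotecan replicates 2 and 3 and 323 to 454 in controls. The 9 markers were not low alike: Cd8b1, which encodes the CD8 beta chain, had 0 normalized counts in that library and 41.6 to 70.3 in the other 5, while Trbc1, a T cell receptor constant region, had 82.1 and 29.0 to 73.2. Cd3e (42.1) and Cd3g (38.0) lay within their control ranges there. The part of these differences in the Tgtp values was not tested.

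The 3 other members on chromosome 18 neighbour Iigp1 and are named as its relatives in RefSeq (Ifgga2 for Gm4951, Ifgga3 for Gm4841, Ifgga4 for F830016B08Rik). Gm4841 (60268301 to 60273267, minus strand) had 424, 325 and 470.3 normalized counts in irinotecan tumours, against 176, 187 and 88.1 in controls. The groups were well apart, and its log2 fold change of 1.49 (SE 0.305) was the largest of the 10 members. F830016B08Rik (60293380 to 60303016) had 298, 361 and 364 normalized counts in irinotecan tumours, against 135, 179 and 143 in controls, a log2 fold change of 1.16 (SE 0.190). It was the only member in which control replicate 3 was not the lowest library. Gm4951 (60212080 to 60247820) had 393, 413 and 543 normalized counts in irinotecan tumours, against 352, 363 and 175 in controls, a log2 fold change of 0.66 (SE 0.293). Its groups did not overlap, yet irinotecan replicates 1 and 2 were close to control replicates 1 and 2, and without control replicate 3 the log2 fold change was 0.32.

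Over the 10 members the log2 fold change was positive in 10 and ranged from 0.57 to 1.49, with a median of 0.94, while the median over all 14639 genes tested was -0.01 and 48.2% of them were positive. In 7 of 10 members every irinotecan library lay above every control, which was the case for 6.68% of all genes tested, and in 0 members every irinotecan library lay below, against 7.89% of all genes. When irinotecan replicate 1 was left out, 9 of 10 members had irinotecan libraries above all controls, against 12.8% of all genes. Limma called 0 members at a Benjamini-Hochberg adjusted p under 0.05, as it called 0% of all genes, while at an unadjusted p under 0.05 there were 393 genes higher (2.68%) and 451 lower (3.08%). DESeq2 on the recovered reads called 5 of the 10 members higher (Irgm1, Irgm2, Iigp1, Gm4841 and F830016B08Rik), against 0.2% of all genes, and edgeR called 0 genes. The authors' deposited table has the same 5 members at an adjusted p under 0.05, against 0.2% of the genes it tested. Its log2 fold changes and adjusted p-values for the members equal those of the DESeq2 run, so it is not a second source. Nothing is read from these shares, because the members were picked with this contrast known.

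Which members DESeq2 called depended on 1 library. Without irinotecan replicate 1 it called 74 genes higher (0.541%) and 77 lower, against 28 and 19 with all libraries. The 74 included 6 members, Irgm1, Irgm2, Igtp, Tgtp1, Gm4841 and F830016B08Rik, and the DESeq2 adjusted p of Iigp1 was 0.153 at a log2 fold change of 1.05. Control replicate 3 was the lowest library in 9 of the 10 members. The members' median per library, relative to the control mean, was 0.88, 0.97 and 1.22 in irinotecan replicates 1, 2 and 3, and 0.28, 0.29 and -0.56 in control replicates 1, 2 and 3. Without control replicate 3 the median log2 fold change over the members was 0.70.

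**Figure D3:**
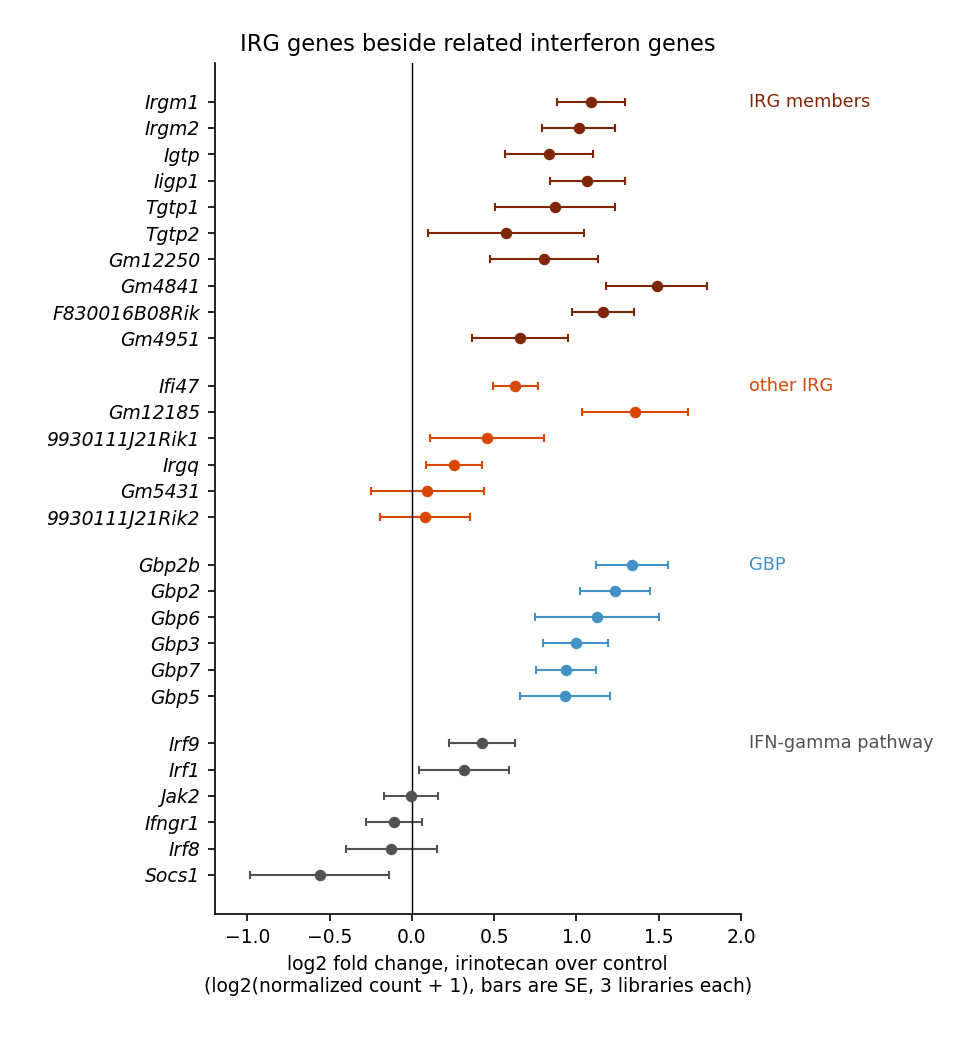
Log2 fold change, irinotecan over control, with its SE, for the 10 IRG members, 6 other IRG genes, 6 guanylate-binding protein (GBP) genes and 6 genes of the interferon-gamma pathway (3 libraries per group). The IRG members lie between 0.57 and 1.49, close to the GBP genes, while Jak2, Ifngr1, Irf8 and Socs1 are at or below 0.

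The make-up of the IRG reads differed little between the groups. Of the summed normalized counts of the 10 genes, the 3 regulators held 44.7%, 45.9% and 43.2% in irinotecan replicates 1, 2 and 3, against 44.2%, 44.2% and 45.6% in controls. Their mean share was 44.6% ± 1.3 in irinotecan tumours and 44.7% ± 0.8 in controls (SD, n = 3 each), so the 2 groups overlapped. Over the same libraries the sum itself was 9577 ± 1189 normalized counts in irinotecan tumours and 4914 ± 1435 in controls. The share of Irgm2 was the steadiest, at 12.3% to 12.6% in irinotecan tumours and 12.0% to 12.8% in controls.

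Shares of single genes moved more. Gm4841 held 3.45% to 5.005% of the IRG sum in irinotecan tumours, against 2.70% to 3.29% in controls. Gm4951 held 4.39% to 5.01% in irinotecan tumours, against 5.38% to 6.39% in controls, and Igtp held 10.3% to 12.7%, against 12.9% to 13.8%. For these 3 genes the shares did not overlap, with Gm4841 higher and Gm4951 and Igtp lower in irinotecan tumours. The gaps were small for Gm4841 (3.45% against 3.29%) and Igtp (12.7% against 12.9%). The shares of a library add up to a fixed whole, so they depend on one another. No share over all genes was computed for this comparison, and nothing is read from it. The Tgtp pair held 4.96% in irinotecan replicate 1, and 10.9% and 10.4% in irinotecan replicates 2 and 3, against 9.24% to 10.5% in controls. The low share was thus seen in 1 of the 3 irinotecan libraries, and its cause was not tested.

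**Figure D4:**
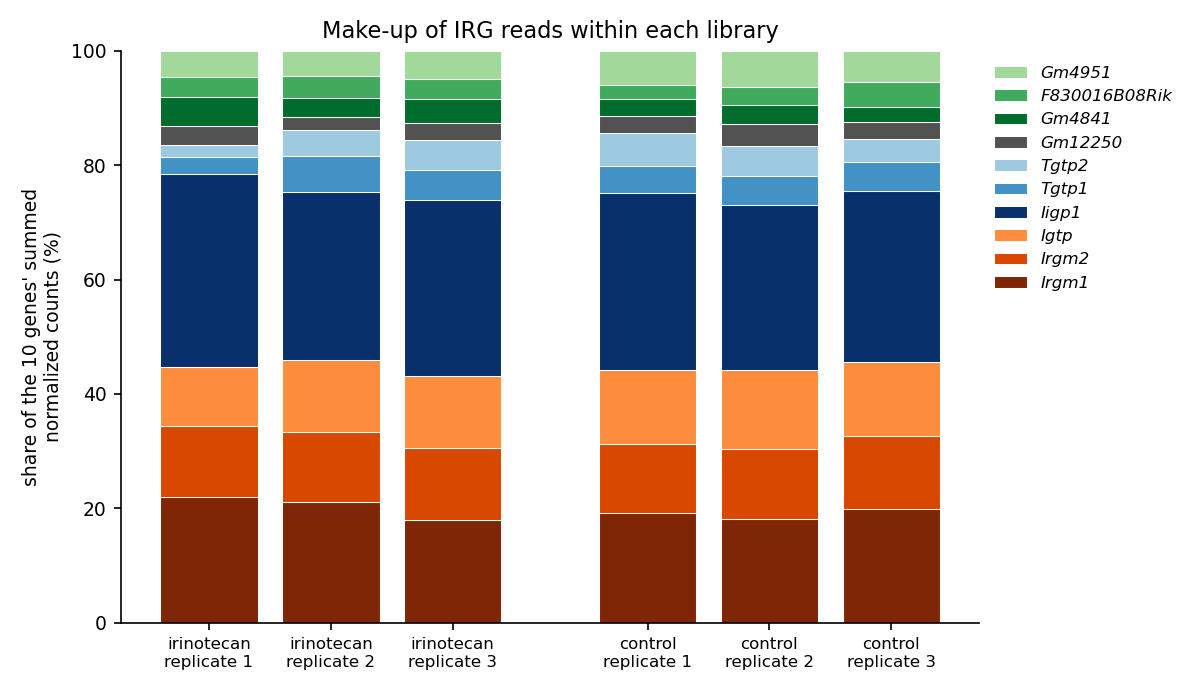
Share of each IRG gene in the summed normalized counts of the 10 genes (%), for each of 3 irinotecan and 3 control libraries. Irgm1, Irgm2 and Igtp at the bottom take 43.2% to 45.9% in every library, and the Tgtp1 and Tgtp2 bands are thin in irinotecan replicate 1.

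Levels between genes were compared as RPKM, computed from the recovered reads and the deposited gene length. In irinotecan tumours Iigp1 stood highest at 65.0 ± 8.8, then Igtp at 38.5 ± 9.99, Irgm1 at 22.6 ± 1.7 and Irgm2 at 21.9 ± 3.8 (SD, n = 3 each). Iigp1 in irinotecan tumours lay above 95.6% of the 12474 protein-coding genes tested, and in controls, at 32.1 ± 9.9, above 88.6%. The steps from Iigp1 to Igtp and from Igtp to Irgm1 left no overlap between the libraries, whereas Irgm1 and Irgm2 overlapped.

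The other 6 members had lower levels per length as counted. For Tgtp1 and Tgtp2, 73.1% and 76.8% of stretches of 100 bases also occurred in other genes. The sources used here do not say how reads in such stretches were counted. The Tgtp levels may therefore be too low, and their places in the order are uncertain. Gm12250 had 14.4 ± 3.4 in irinotecan tumours, apart from Irgm2, and Gm4951 (11.6 ± 2.6), Tgtp1 (10.02 ± 4.45), Gm4841 (9.71 ± 1.93), Tgtp2 (9.11 ± 4.86) and F830016B08Rik (7.03 ± 1.05) followed, each overlapping with its neighbours in this order. In controls RPKM ran from 32.1 ± 9.9 for Iigp1 and 21.99 ± 6.89 for Igtp down to 3.61 ± 1.33 for Gm4841 and 3.14 ± 0.50 for F830016B08Rik. Some steps rest on the gene length used. With the longest GENCODE M21 transcript as length the order of the means was the same, but Irgm1, at 31.3 to 35.9 in irinotecan tumours against 20.7 to 23.7 with its deposited 5810 bases, then overlapped with Igtp. With the union of the M21 exons, a length added after the data were seen, Iigp1 has 5823 bases in place of the deposited 3121, and its mean in irinotecan tumours was 34.8 ± 4.7, within the range of Igtp.

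**Figure D5:**
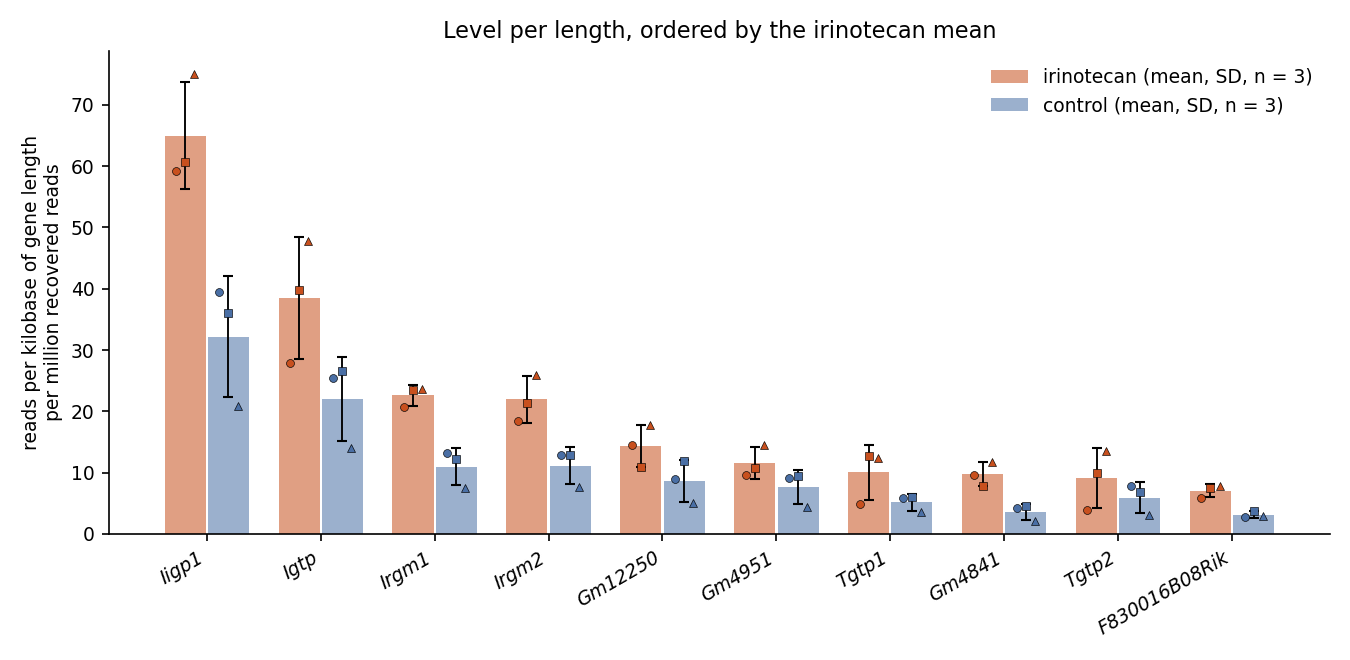
RPKM (recovered reads per kilobase of deposited gene length, scaled to library size) of the 10 IRG genes, ordered by the irinotecan mean; bars are means, error bars SD (n = 3), and symbols replicates 1 (circle), 2 (square) and 3 (triangle). Iigp1 at 65.0 with irinotecan and 32.1 in controls stands highest, and F830016B08Rik at 7.03 and 3.14 lowest.

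Most members varied together also within the groups. Over the 6 libraries Pearson's r between log2 values of 2 members had a median of 0.89 over the 45 pairs (range 0.52 to 0.99). After centring each group on its own mean, which removes the difference between treatments, the median was 0.82 (range 0.20 to 0.996). In the 28 pairs without Tgtp1 or Tgtp2 the centred median was 0.87, and in the 16 pairs of a Tgtp gene with another member it was 0.66, while Tgtp1 and Tgtp2 were at 0.95 with each other. F830016B08Rik followed the others loosely. Its centred r was 0.20 with Iigp1, 0.21 with Irgm1, 0.22 with Gm4841, 0.35 with Gm12250, 0.40 with Gm4951 and 0.42 with Irgm2. It was 0.55 with Tgtp2, 0.56 with Igtp and 0.67 with Tgtp1. The libraries share their scaling, there are only 6 of them, and they fall into the study's 2 groups, so these values describe the libraries at hand.

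Of 9907 protein-coding genes outside the list with a mean of at least 100 normalized counts, those most like the members' mean profile over the 6 libraries were Samhd1, a dNTP hydrolase that restricts viruses (r = 0.99), the cation channel gene Trpm4 (0.99), Gbp5 (0.98), the interferon regulatory factor gene Irf7 (0.98), Apol6 (0.98), the RNA helicase gene Skiv2l (0.97), Garnl3 (0.97) and Acadm, an enzyme of fatty acid oxidation (0.97). The median r over these 9907 genes was -0.03 and the 95th percentile 0.72. Their log2 fold changes differed widely in size, with Apol6 at 1.49 (SE 0.368), Skiv2l at 0.12 (SE 0.123) and Acadm at 0.18 (SE 0.129).

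Other IRG genes were measured beside the members. Ifi47, added after its values were seen, had 1234, 1373 and 1430.1 normalized counts in irinotecan tumours, against 828, 972 and 815 in controls (log2 fold change 0.63, SE 0.137). Its groups did not overlap, and its controls were closer together than those of the members. Gm12185 had 359, 245 and 255 normalized counts in irinotecan tumours, against 147, 134 and 66.8 in controls (log2 fold change 1.36, SE 0.321), and DESeq2 called it. Of the list of 8 further IRG genes 5 were tested, 5 had a positive log2 fold change (median 0.26), and 1, Gm12185, had groups that did not overlap. Over all genes tested 48.2% were positive, 6.68% had every irinotecan library above every control, and DESeq2 called 0.2% higher. Irgq had a value of 0.26 (SE 0.172), 9930111J21Rik1 of 0.46 (SE 0.345), 9930111J21Rik2 of 0.08 (SE 0.274) and Gm5431 of 0.09 (SE 0.342). Without irinotecan replicate 1 the value was 0.064 for 9930111J21Rik1 and 0.16 for Irgq, and without irinotecan replicate 2 it was 0.69 for 9930111J21Rik1. Gm12185 shares 223 exon bases with Tgtp1.

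The pathway that feeds the IRG genes was less uniform. Interferon-gamma itself was near the detection limit: Ifng had 0, 8.67 and 19.3 normalized counts in irinotecan tumours, against 4.67, 4.18 and 5.81 in controls, with 43 reads in all. The log2 fold changes of the transcription factor genes Irf1, Irf9 and Irf8 were 0.32 (SE 0.271), 0.43 (SE 0.200) and -0.13 (SE 0.276). Without control replicate 3 Irf1 was at 0.10 and Irf9 at 0.22, and without irinotecan replicate 1 Irf1 was at 0.59. The feedback inhibitor Socs1 had 85.2, 292 and 269 normalized counts in irinotecan tumours, against 289.8, 279 and 267 in controls, a log2 fold change of -0.56 (SE 0.424). Irinotecan replicate 1 was low, and without it the value was 0.0071.

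Of the 16 genes tested in the interferon-gamma pathway list, 8 had a positive log2 fold change (median 0.08), limma and DESeq2 called 0, and 3 had an unadjusted limma p under 0.05, all 3 higher. The shares over all genes tested, for this list and those that follow, were 48.2% positive, 2.68% higher and 3.08% lower at an unadjusted limma p under 0.05, 6.68% above and 7.89% below all controls, and 0.2% called higher by DESeq2. Stat2 and Nlrc5 lay above all controls in every irinotecan library, and Ifngr2, Socs3 and Ptpn2 lay below. Of 15 genes stimulated by type I interferon, 15 were positive (median 0.49), 5 had irinotecan libraries above all controls and 0 were called by either tool, with 6 at an unadjusted limma p under 0.05. The most abundant of these were Oasl2, at 0.62 (SE 0.225), and Ifi44, at 0.48 (SE 0.203). The 11 GBP genes, large interferon-induced GTPases that act on the same vacuoles, were all positive with a median of 0.996, 9 had groups that did not overlap, and DESeq2 called 5. Correlation with the members' mean over the 6 libraries was 0.80 for Irf1, 0.95 for Irf9 and -0.15 for Socs1, and after centring on the group means it was 0.90, 0.94 and 0.44.

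Ubiquitin and adaptor genes that act at the vacuole had a smaller median log2 fold change than the members. Among 5 such genes 3 were positive (median 0.24), 0 were called and 1 had an unadjusted limma p under 0.05. In 1, Trim21, every irinotecan library lay above every control, against 6.68% of all genes. The value was -0.17 (SE 0.158) for Sqstm1 and -0.50 (SE 0.353) for Ubb, the 2 most abundant. Without irinotecan replicate 1 Ubb was at -0.081, and without irinotecan replicate 3 Sqstm1 was at -0.055. Of 9 listed type I and III interferon and receptor genes only 3 were tested, Ifnar1, Ifnar2 and Tyk2. Ifnb1 had 6 reads in all, and Ifna2, Ifna4, Ifnl2, Ifnl3 and Ifnlr1 had no row. The interferons themselves were thus not assessed. Of the 3 genes tested, 2 were positive and 0 were called or had an unadjusted limma p under 0.05. Ifnar1 was at 0.16 (SE 0.151) and Tyk2 at 0.27 (SE 0.173). Without irinotecan replicate 1 Ifnar1 was at 0.043.

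Markers of cells that a tumour sample can hold moved in several directions. The summed level of 9 T cell markers was 316 to 637 normalized counts in irinotecan tumours and 323 to 454 in controls, and that of 5 NK cell markers was 161 to 262 and 133 to 191. The summed level of 8 macrophage and monocyte markers was 5695 to 9543 normalized counts in irinotecan tumours and 10357 to 11202 in controls, that of 5 endothelial markers 1338 to 1852 and 2161 to 2485, and that of 6 neutrophil markers 281 to 325 and 538 to 686. The macrophage and monocyte sum weighs Mrc1 most, with 2409 to 3829 normalized counts in irinotecan tumours and 4775 to 5191 in controls. Of its 8 markers 4 lay below all controls in every irinotecan library, against 7.89% of all genes. The 2 with a positive log2 fold change were Ly6c2 and Ccr2. Ccr2 had 889, 1604 and 1482 in irinotecan replicates 1, 2 and 3, against 1028 to 1308 in controls. Macrophage, endothelial and neutrophil sums were lower in every irinotecan library while the IRG sum was higher. T and NK cell sums overlapped between the groups, as did those of dendritic cell, fibroblast and skeletal muscle markers. The part of all these markers in the IRG values was not tested.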

How the data were processed

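Bulk RNA of CT26 tumours was sequenced in 3 irinotecan and 3 control libraries. The authors deposited 1 table, and per its file headers it holds a normalized signal per gene and library (reads divided by 1 factor per library), the group means of that signal, log2 fold changes, and p-values with and without adjustment. The submitters' processing notes name CASAVA, fastp, DESeq2 1.20.0, HISAT2 2.0.5 and featureCounts 1.5.0-p3, on build GRCm38. No source used here gives the strand setting or annotation release. In every library 100% of values were whole multiples of its smallest value above 0 (tolerance 1e-06), which gave back the reads. The total reads bear on counting error only.

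Limma 3.58.1 in R 4.3.3, with a mean-variance trend, was fitted on log2(normalized count + 1), a scale that understates the change of low genes. The 14639 genes averaging at least 10 normalized counts were tested, with the group as the only term and Benjamini-Hochberg adjustment. DESeq2 1.42.0 and edgeR 4.0.16 on recovered reads were alternatives. The fits were tested on simulated data first. Named genes were all members, preset genes of the interferon-gamma and GBP lists, every detected other IRG gene, the 2 most abundant genes of each other list, the 8 genes most correlated with the members, and genes said to be singled out by a count. The members and lists were chosen with earlier results of these data known. Exons and transcripts came from GENCODE M21 (GRCm38) and promoters from RefSeq (GRCm38.p6). Some preset genes and 1 preset list are not reported here. Protein features were not analysed here.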

Additional observations from a re-analysis of the deposited data

How the results depend on the processing

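Of 182 values of the 10 members under the alternatives, all were positive; 165 stayed on the same side of the threshold and 17 passed it, under DESeq2, DESeq2 without irinotecan replicate 1 and estimated library weights. The members' median log2 fold change of 0.94 ran from 0.92 to 1.02 under quantile and TMM scaling, pseudocounts of 0.5 and 10, no low-value filter, removal of a GC and length trend, library weights, summed Tgtp genes and the count tools, from 0.70 to 1.11 with 1 library left out at a time, and was 1.06 in DESeq2 without irinotecan replicate 1. The genes called, 0 higher and 0 lower by limma, were 28 and 19 with DESeq2, 30 and 22 with library weights, and 74 and 77 with DESeq2 without irinotecan replicate 1, an alternative chosen after seeing the data. Leaving out 1 library, limma called 0 to 2 higher (2 without irinotecan replicate 1) and 0 lower. Members called were 0 by limma, 5 with DESeq2, and 6 each with library weights and with DESeq2 without irinotecan replicate 1. The cause was not tested. Deviations from the group means did not run alike in libraries of the same replicate number (correlations -0.114, -0.0087 and -0.213). Trends over a whole library enter these values, so they cannot settle whether a weaker pairing exists. With the replicate block the member median was 0.94 and 0 genes were called.

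Signs turned only in named genes outside the list. Ifngr1 was at 0.036 and Irf8 at 0.14 with library weights, Irf8 at 0.0054 and 9930111J21Rik2 at -0.025 after removal of the GC and length trend, and Jak2 at 0.014 with DESeq2, 0.021 with edgeR and DESeq2-type factors and 0.015 with edgeR and TMM. DESeq2 without irinotecan replicate 1 gave 0.0075 for Socs1, 0.0060 for Ifngr1 and 0.16 for Irf8. Leaving out 1 library, the log2 fold change ran from -0.87 to 0.0071 for Socs1, -0.15 to 0.15 for Jak2, -0.21 to 0.015 for Ifngr1, -0.32 to 0.17 for Irf8, -0.11 to 0.41 for 9930111J21Rik2 and -0.12 to 0.40 for Gm5431. The cause was not tested.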
